A study of Bos indicus x Bos taurus with 17 samples.

Results

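Nuclear genes for subunits of the respiratory chain and of ATP synthase were followed in skeletal muscle and liver of 6 bovine fetuses. They were taken by their symbols in the deposited gene table: the NDUF subunit genes, SDHA to SDHD, genes that begin with UQCR, the COX4 to COX8 genes and genes that begin with ATP5. The rule found 84 of 21048 listed genes. Of these, 36 belong to complex I, 4 to complex II, 8 to complex III, 17 to complex IV and 19 to complex V, which is ATP synthase. NDUFA4 is named like a complex I gene but is now placed with complex IV and was counted there. Complex V here includes ATP5IF1, an inhibitor of the enzyme, and ATP5S, which is not a core subunit.

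The fetuses were F1 crosses of Nelore (Bos taurus indicus) and Holstein (Bos taurus taurus), collected at about day 105 of gestation. Control-AI fetuses 2 and 4 were conceived by artificial insemination. ART-Normal fetuses 1 to 4 were produced in vitro, and the paper describes this group as close to the controls in weight. ART-Normal 4 is given by the sample labels but is not in the paper's list of fetuses, so its own weight is not given there. Each fetus gave a muscle and a liver library, so 12 libraries were used, and kidney libraries in the labels were not analysed here. Samples of a group come from separate fetuses.

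The respiratory chain sits in the inner mitochondrial membrane. Complexes I and II pass electrons from NADH and succinate to ubiquinone, complex III passes them to cytochrome c, and complex IV passes them to oxygen. Complexes I, III and IV pump protons, and ATP synthase uses the resulting gradient to make ATP. Most subunits are encoded in the nucleus and imported, while a few core subunits are encoded by mitochondrial DNA. Several complex IV subunits exist as a widely expressed form and a form of heart and skeletal muscle.

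Total gene counts ranged from 12433300 to 23578362 per library in muscle and from 18454088 to 43339598 in liver. Members took 0.494% to 0.668% of the counts in muscle and 0.435% to 0.792% in liver, and Control-AI 2 had the lowest share in both tissues. Values are given as counts per 1000000 counts after TMM scaling over the 12 libraries (CPM). Counts were made over whole gene spans, so levels are not per transcript length and are not compared between genes. The tissues matched their labels: 10 skeletal muscle markers summed to between 17102 and 27791 CPM in muscle and between 7.34 and 36.2 CPM in liver. The sum of 8 hepatocyte markers was between 25.2 and 371 CPM in muscle and between 30085 and 342417 CPM in liver. Control-AI 2 had the highest sum of the other tissue's markers in each tissue, and its liver sum of 342417 CPM stood far from the 30085 to 58086 CPM of the other 5 livers. It also had the highest liver sum of 8 erythroid markers, 24745 CPM against 5627 to 6499 CPM. In muscle these 8 markers summed to between 93.9 and 650 CPM, and between tissues 7 were called higher in liver and 1 in muscle (edgeR). The part of erythroid cells in the differences between tissues was not tested. No hepatocyte marker of the list was at 0 in liver, and MYOG, a muscle marker, was at 0 in ART-Normal liver. A difference in a bulk tissue can come from fewer cells of a type or from less RNA per cell, and these cannot be told apart here.

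Muscle and liver were compared within each fetus to ask which subunit genes differ between these tissues. More members were higher in liver than in muscle. Of 81 members tested, 47 were higher in liver, 9 were higher in muscle and 25 did not pass the test (edgeR quasi-likelihood test with the fetus as a block, Benjamini-Hochberg adjusted p of 0.05 or lower). Among all 12923 genes tested, 42.2% were higher in liver and 42.5% were higher in muscle. The members' median log2 fold change, muscle over liver, was -0.26, and that of all genes tested was -0.00488. Scaling by library size alone moved the median of all genes to 0.14 and that of the members to -0.12, and the counts were then 24 higher in liver and 12 higher in muscle. In CPM, 41 of the 81 were higher in liver in all 6 fetuses and 9 were higher in muscle in all 6. The other 31 varied in direction between fetuses. The 9 include COX6A2 and COX8B, which passed the filter through muscle alone. These counts were not made for all genes, so no background share stands beside them.

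Every complex was tilted toward liver in its count of members. Complex I had 18 members higher in liver and 5 higher in muscle. All 4 members of complex II were higher in liver. Complex III had 4 higher in liver and 1 higher in muscle, complex IV had 8 and 2, and complex V had 13 and 1. The 2 of complex IV, COX6A2 and COX8B, passed the filter through muscle alone and could count in that direction only. The medians were -0.21 for complex I, -0.76 for complex II, -0.28 for complexes III and IV and -0.35 for complex V.

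**Figure D1:**
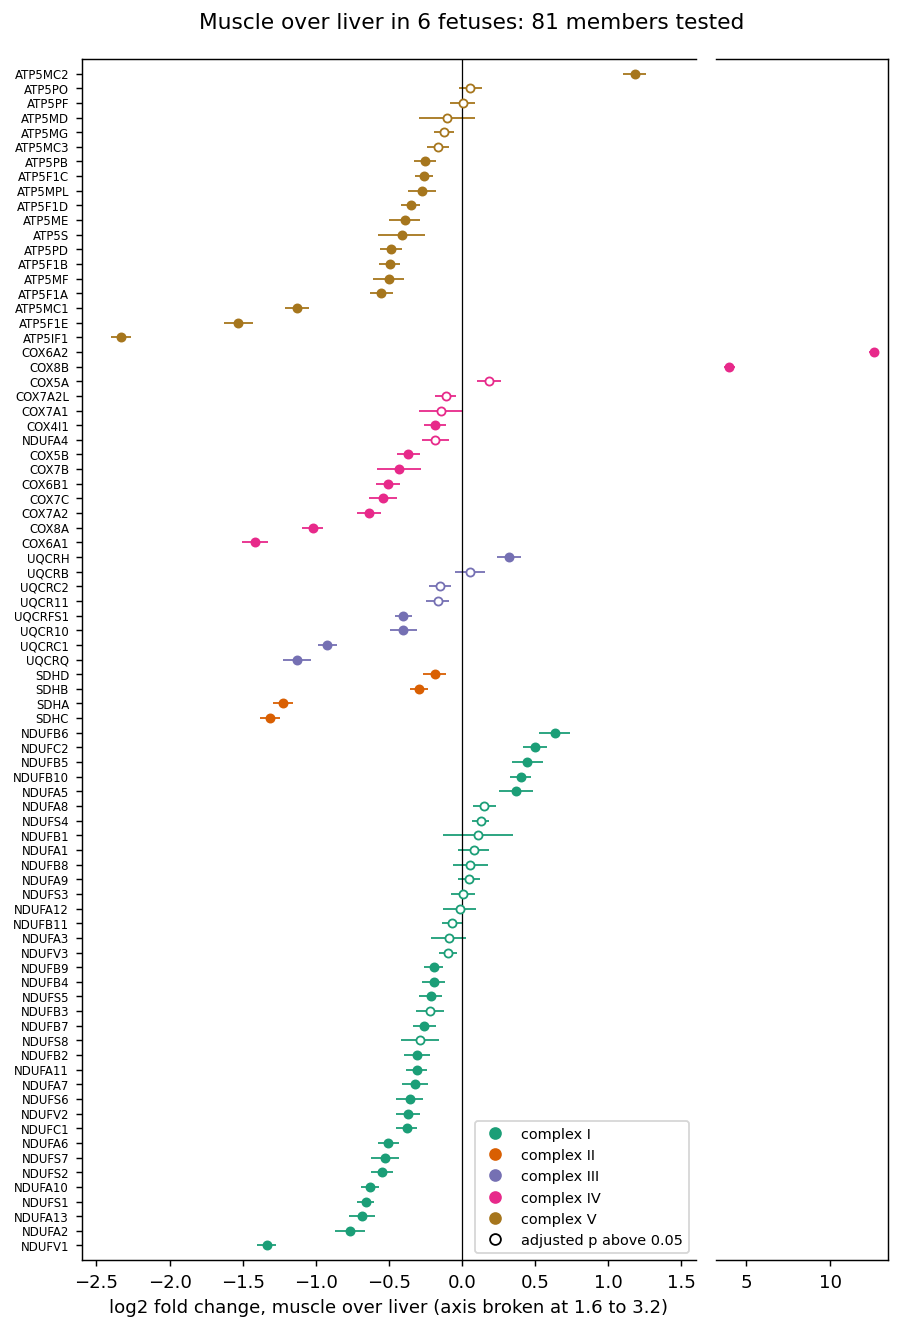
Log2 fold change of muscle over liver for the 81 members tested, one row per gene in complexes I to V from the bottom up, with bars of 1 standard error and a broken axis. Filled points have an adjusted p of 0.05 or lower; most lie to the left of 0, and COX6A2, COX8B and ATP5MC2 lie farthest to the right, the first at a fitted value that rests on 1 count in the 6 livers.

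Complex IV held the widest difference between tissues. COX6A2, the heart and muscle form of subunit 6A, was close to absent from liver. In muscle its level was 45.7, 71.2, 70.5 and 108 CPM in ART-Normal 1 to 4, while Control-AI 2 had 39.9 CPM and Control-AI 4 had 68.5 CPM. The 6 livers together held 1 count, in ART-Normal 1. Against an assumed 3 counts over the 6 livers, the mean muscle level of 67.2 ± 23.9 CPM (SD, n = 6) was 3526-fold higher. This is not a lower bound for a single fetus, since ART-Normal 1 had 45.7 CPM in muscle and 0.0465 CPM in liver. COX6A2 lies on chromosome 25 (27480001 to 27480652, minus strand, ARS-UCD1.2) over a span of 652 bp, the shortest of the 84. It entered the test through muscle alone, so it had to differ.

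COX6A1, the widely expressed form, went the other way. Its level was 59.6, 46.3, 43.0 and 60.3 CPM in ART-Normal muscle and 40.1 and 49.8 CPM in Control-AI muscle. In liver it was 125, 127, 140 and 146 CPM in ART-Normal, and the controls had 107 and 148 CPM, so the tissues did not overlap. The log2 fold change, muscle over liver, was -1.42 ± 0.09 (SE; adjusted p = 1.74e-07, edgeR), or 2.67-fold higher in liver. The log2 ratio of COX6A2 to COX6A1 was higher in muscle by 8.39 ± 0.63 (SD, n = 6), which is a description, since COX6A2 was tested only because of its muscle level. Liver values of COX6A2 near 0 make the size of this ratio depend on the 0.5 CPM added to both genes.

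Subunit 8 had the same opposition. COX8B, the muscle form, was at 28.9, 52.9, 58.7 and 96.0 CPM in ART-Normal muscle and at 17.9 and 53.4 CPM in Control-AI muscle. Liver held 5.90, 1.79, 3.55 and 3.04 CPM in ART-Normal, and the controls had 1.08 and 3.89 CPM. All muscle values were above all liver values, with a fitted log2 fold change of 4.00 ± 0.34 (SE). Like COX6A2, COX8B passed the filter of 5 CPM through muscle alone, so its direction was set by the filter and no p is given. COX8A, the other form, was higher in liver by 2.03-fold (log2 fold change of muscle over liver -1.02 ± 0.07, SE; adjusted p = 4.4e-07, edgeR), at 92.7 ± 15.5 CPM in liver and 45.9 ± 8.93 CPM in muscle (SD, n = 6). The log2 ratio of COX8B to COX8A was higher in muscle by 4.77 ± 0.91 (SD, n = 6), a description for the same reason. COX8B is listed on chromosome 11 (82923058 to 82924568, minus strand) inside the span of NBAS on the other strand, which had a mean of 76.0 CPM in muscle and 44.9 CPM in liver. Whether reads were counted by strand is not given in the sources used here, so the part of NBAS reads in these values was not tested.

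The third pair were the genes of subunit 7A. COX7A1, the heart and muscle form of subunit 7A, was at 15.1, 17.9, 18.0 and 24.8 CPM in ART-Normal muscle and at 13.5 and 18.0 CPM in Control-AI muscle. In liver it was at 24.6, 15.1, 24.5 and 22.6 CPM in ART-Normal and at 10.4 and 23.8 CPM in Control-AI. The tissues overlapped, 3 fetuses were higher in muscle and 3 in liver, and the log2 fold change of -0.14 ± 0.15 (SE) did not pass the test (adjusted p = 0.394, edgeR). COX7A2, the widely expressed form, was higher in liver (log2 fold change of muscle over liver -0.64 ± 0.08, SE; adjusted p = 5.22e-05, edgeR). Its ratio with COX7A1 differed by 0.49 ± 0.44 on the log2 scale (SD, n = 6; exact two-sided sign-flip permutation p = 0.0625, adjusted 0.0625 over the 5 pairs computed), toward muscle in 5 of 6 fetuses. COX7A2L, a related gene with a role in supercomplexes, did not pass the test at -0.11 ± 0.07 (SE), and its direction turned under library size alone, where the log2 fold change was 0.03.

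COX4I2, COX6B2 and COX7B2, the less common forms of their subunits, did not pass the filter of 5 CPM. COX4I2 was at 0.438 to 0.796 CPM in muscle and had no count in 5 of 6 livers, with 0.506 CPM in the liver of Control-AI 2. COX6B2 was at 0.249 to 0.735 CPM in muscle and 0 to 0.326 CPM in liver. COX7B2 was between 0 and 1.04 CPM in muscle and between 0 and 1.52 CPM in liver. Their common counterparts were all higher in liver by small amounts, with log2 fold changes of muscle over liver of -0.18 ± 0.08 for COX4I1, -0.50 ± 0.08 for COX6B1 and -0.43 ± 0.15 for COX7B (SE). The adjusted p of 0.0462 for COX4I1 and of 0.0221 for COX7B (edgeR) did not stay at 0.05 or lower when single fetuses were left out, Control-AI 2 among them for COX4I1.

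**Figure D2:**
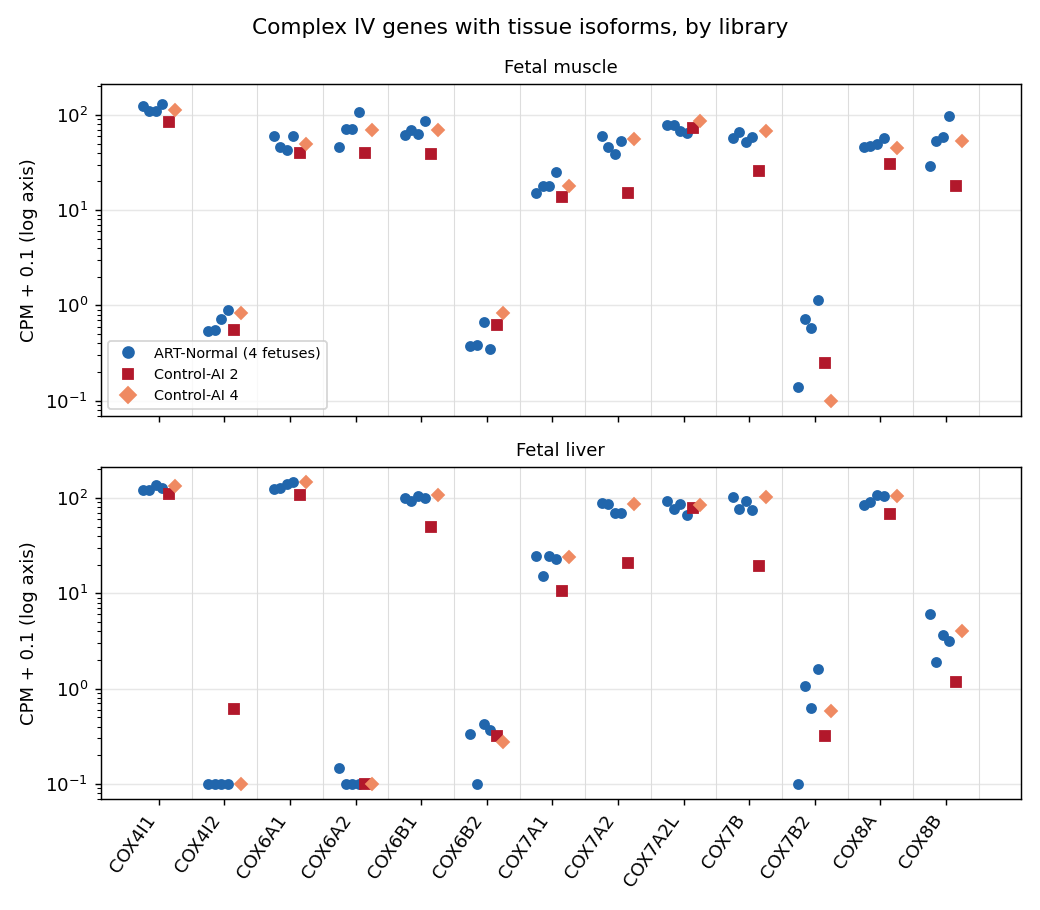
CPM plus 0.1 on a log axis for 13 complex IV genes in the 6 muscle libraries (top) and the 6 liver libraries (bottom), with circles for ART-Normal fetuses, squares for Control-AI 2 and diamonds for Control-AI 4. COX6A2 and COX8B are at 17.9 to 108 CPM in muscle and at or below 5.90 CPM in liver, COX7A1 is alike in range in both tissues, and Control-AI 2 is lowest for COX7A2, COX7B and COX8B.

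ATP synthase had a comparable exchange among its c subunit genes. ATP5MC1, ATP5MC2 and ATP5MC3 encode the same mature c subunit, which forms the ring turned by proton flow, behind different import peptides. ATP5MC2 was at 283, 334, 329 and 424 CPM in ART-Normal muscle and at 226 and 311 CPM in Control-AI muscle, against 143, 128, 150 and 155 CPM and 105 and 155 CPM in liver. The tissues did not overlap, and ATP5MC2 was 2.26-fold higher in muscle (log2 fold change 1.18 ± 0.08, SE; adjusted p = 3.88e-07, edgeR). It was the single member of complex V that was higher in muscle.

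ATP5MC1 was higher in liver (-1.13 ± 0.08, SE; adjusted p = 5.47e-07, edgeR), while ATP5MC3 gave -0.16 ± 0.08 (SE) and did not pass the test (adjusted p = 0.0706, edgeR). Relative to ATP5MC3, ATP5MC2 was higher in muscle by 1.34 ± 0.17 and ATP5MC1 was lower in muscle by 0.96 ± 0.22 on the log2 scale (SD, n = 6). Both differences had the same sign in 6 of 6 fetuses (exact two-sided sign-flip permutation p = 0.03125, the smallest that 6 fetuses allow). Over 5 pairs the adjusted permutation p was 0.0390625, which is too low, since the pairs of COX6A2 and COX8B, whose direction the filter set, were counted in it.

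ATP5IF1, which inhibits the hydrolysis of ATP by the enzyme, had the largest difference toward liver of the 81 members tested. In muscle it was at 67.3, 60.5, 61.3 and 72.5 CPM in ART-Normal and at 57.6 and 65.7 CPM in Control-AI. In liver it was at 350, 328, 291 and 340 CPM in ART-Normal and at 264 and 373 CPM in Control-AI. All livers were above all muscles, with a 5.04-fold difference (log2 fold change of muscle over liver -2.33 ± 0.07, SE; adjusted p = 1.13e-09, edgeR). It lies on chromosome 2 (125145440 to 125147684, minus strand).

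The catalytic core moved less. ATP5F1A, the alpha subunit, was at 361 ± 87.4 CPM in muscle and 524 ± 102 CPM in liver (SD, n = 6; log2 fold change -0.55 ± 0.08, SE; adjusted p = 0.000108, edgeR). ATP5F1B, the catalytic beta subunit, was at 353 ± 30.6 CPM in muscle and 498 ± 40.9 CPM in liver (-0.50 ± 0.07, SE; adjusted p = 0.000122, edgeR). ATP5F1E, the small epsilon subunit of the rotor, was 2.89-fold higher in liver (-1.53 ± 0.10, SE; adjusted p = 2.34e-07, edgeR), at 67.4, 79.2, 61.5, 73.5, 17.0 and 77.0 CPM in muscle and at 225, 174, 228, 207, 48.5 and 204 CPM in liver, in the order ART-Normal 1 to 4, Control-AI 2 and Control-AI 4. Control-AI 2 was the low value in both tissues, and its liver was below 5 of the muscles. ATP5PO, in the peripheral stalk, gave 0.05 ± 0.08 (SE) and did not pass the test.

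Complex II, which is also succinate dehydrogenase of the citric acid cycle, was split into strong and weak differences. SDHA, the flavoprotein that oxidizes succinate, was at 111, 119, 128 and 127 CPM in ART-Normal muscle and at 129 and 118 CPM in Control-AI muscle. In liver it was at 251, 264, 289 and 264 CPM in ART-Normal and at 351 and 299 CPM in Control-AI. The tissues did not overlap (2.34-fold higher in liver; log2 fold change of muscle over liver -1.22 ± 0.07, SE; adjusted p = 8.78e-08, edgeR).

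SDHC, a membrane anchor, gave a similar value of -1.31 ± 0.07 (SE; adjusted p = 4.05e-08, edgeR), with 29.2 to 64.6 CPM in muscle and 66.1 to 162 CPM in liver, and Control-AI 2 the lowest in each tissue. SDHB, the iron-sulfur subunit, and SDHD, the other anchor, had log2 fold changes of -0.30 ± 0.06 and -0.19 ± 0.08 (SE; adjusted p = 0.00137 and 0.0442, edgeR). The call for SDHD did not hold without ART-Normal 1, 3 or 4 or without Control-AI 2, where the log2 fold change was -0.15. In summed CPM, complex II was at 311 to 341 in muscle and 546 to 621 in liver.

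Complex I differed from subunit to subunit. NDUFV1, the flavoprotein that binds NADH, was at 37.7, 41.1, 46.6 and 45.8 CPM in ART-Normal muscle and at 45.5 and 45.8 CPM in Control-AI muscle, and at 106, 109, 115 and 114 CPM and 105 and 114 CPM in liver. The values did not overlap, spread little within a tissue, and gave 2.53-fold higher levels in liver (-1.34 ± 0.06, SE; adjusted p = 2.41e-08, edgeR). NDUFA2, an accessory subunit, was also higher in liver (-0.77 ± 0.10, SE; adjusted p = 6.87e-05, edgeR).

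The 5 complex I members higher in muscle were NDUFB6, NDUFC2, NDUFB5, NDUFB10 and NDUFA5, accessory subunits like most of the 36 members of complex I. NDUFB6 had 30.2 to 41.6 CPM in muscle and 16.0 to 24.8 CPM in liver (0.63 ± 0.11, SE; adjusted p = 0.000325, edgeR), and NDUFC2 had 66.7 to 87.7 CPM and 36.6 to 72.5 CPM (0.50 ± 0.08, SE; adjusted p = 0.00031, edgeR). NDUFB6 did not overlap between tissues and NDUFC2 did. The others were named after their values were seen, with log2 fold changes of 0.45 for NDUFB5, 0.40 for NDUFB10 and 0.37 for NDUFA5.

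In complex III, UQCRC1, a core protein, was higher in liver at 112, 122, 126, 135, 149 and 139 CPM, against 60.0, 69.3, 65.8, 79.2, 76.1 and 63.1 CPM in muscle (order as for ATP5F1E; -0.92 ± 0.07, SE; adjusted p = 5.51e-07, edgeR). No muscle value reached a liver value. UQCRQ, a small subunit, gave -1.13 ± 0.10 (SE; adjusted p = 2.21e-06, edgeR), and UQCRFS1, the Rieske iron-sulfur protein, gave -0.40 ± 0.06 (SE; adjusted p = 0.000129, edgeR). UQCRH, the hinge protein, was the member higher in muscle (0.32 ± 0.08, SE; adjusted p = 0.00421, edgeR), and LRRC41 overlaps it on the other strand at a mean of 155 CPM in muscle and 90.1 CPM in liver. UQCRB did not pass the test at 0.05 ± 0.10 (SE), and its log2 fold change was -0.04 in the ART-Normal fetuses alone.

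Other genes of the pathway were read from lists. CYC1, CYCS and NDUFAB1 (cytochrome c1, cytochrome c and the acyl carrier subunit) were 3 of 3 tested that were higher in liver, with log2 fold changes of muscle over liver of -0.86, -0.34 and -0.29. NDUFA4L2, of the same list, did not pass the filter and went the other way, at 2.58 to 3.26 CPM in muscle and 0.642 to 1.55 CPM in liver. Of 13 citric acid cycle genes, 8 were higher in liver and 2 in muscle, with a median of -0.36, where 42.2% and 42.5% of all genes were. IDH3A, the catalytic subunit of isocitrate dehydrogenase, was the highest in muscle at 2.72, while IDH3B and IDH3G of the same enzyme were at -0.36 and -0.68. The 13 subunits encoded by mitochondrial DNA gave 3 higher in muscle (ATP8, COX3 and ND2) and 1 higher in liver (ND6), with a median of 0.23.

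Among 44 assembly factors tested, 20 were higher in liver and 12 in muscle, with a median of -0.19; beside 42.2% and 42.5% of all genes, the liver count is near the background. FOXRED1, a complex I assembly factor, gave -2.98, and SDHAF3, of complex II, gave 1.63 but passed the filter through muscle alone. Of 16 regulators of mitochondrial biogenesis, 9 were higher in liver and 5 in muscle, and 3 of those 5, PPARGC1B, ESRRG and ESRRB, passed the filter through muscle alone. PPARGC1A (PGC-1 alpha) was higher in liver at -0.57 ± 0.08 (SE), while the coactivator PPARGC1B was at 133 to 240 CPM in muscle and 3.87 to 9.12 CPM in liver, and the receptor ESRRG at 22.7 to 78.5 CPM and 0.995 to 3.71 CPM.

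**Figure D3:**
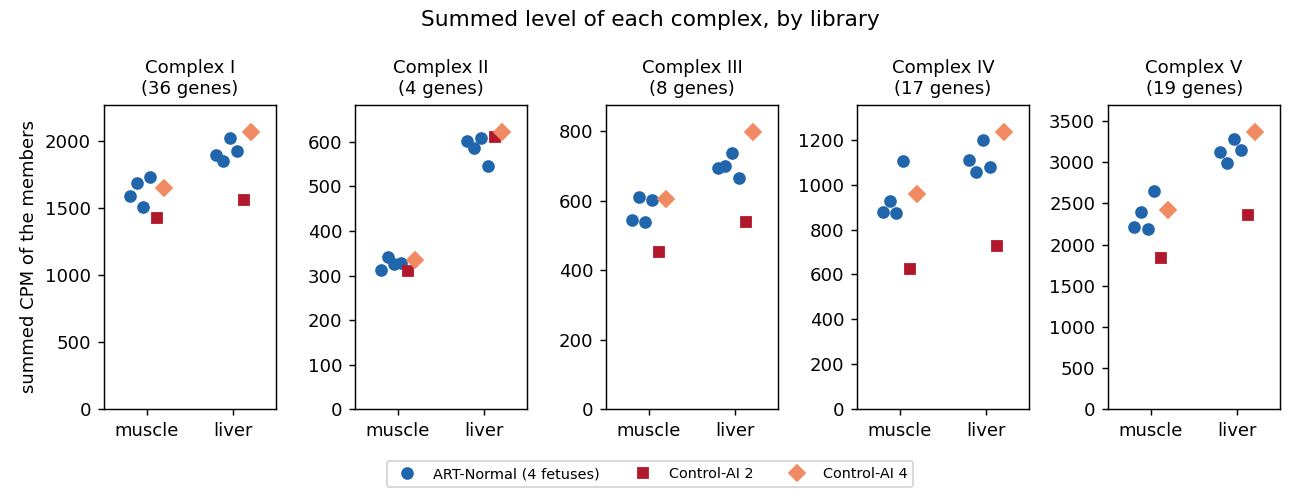
Summed CPM of the members of each complex in the 12 libraries, with axes from 0, circles for ART-Normal, squares for Control-AI 2 and diamonds for Control-AI 4. Within a fetus liver is above muscle for each complex, except complex IV in ART-Normal 4 (1105 CPM in muscle, 1079 CPM in liver). Control-AI 2 is lowest in each tissue for complexes I, III, IV and V. For complex II it is lowest in muscle by little (311 CPM against 313 to 341 CPM) and lies among the others in liver.

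ART-Normal and Control-AI fetuses were compared within each tissue to ask whether conception in vitro goes with a difference in these genes. No member passed the test in either tissue. In muscle 1 of 11695 genes was called (0.00855%) and in liver 0 of 11304 (0%), both by edgeR's quasi-likelihood test, and the lowest adjusted p of a member was 0.521 in muscle and 0.513 in liver. At an unadjusted p under 0.05 there were 2 of 81 members in muscle against 9.19% of all genes, and 1 of 79 in liver against 8.39%. DESeq2 called 0 members in each tissue, among 106 genes in muscle and 56 in liver. Control-AI has 2 fetuses, and an exact permutation of 4 against 2 cannot go below 0.0667 for a single gene.

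Members with p under 0.05 were NDUFA7 and COX8A in muscle and NDUFB7 in liver, all higher in ART-Normal by value. NDUFA7, an accessory subunit of complex I, was at 31.2, 31.6, 32.5 and 36.4 CPM in ART-Normal muscle and at 23.6 and 28.1 CPM in Control-AI muscle (log2 fold change 0.35 ± 0.15, SE; adjusted p = 0.521, edgeR). COX8A was at 45.5, 46.6, 49.9 and 57.7 CPM against 30.4 and 45.2 CPM (0.40 ± 0.18, SE; adjusted p = 0.541, edgeR). In these the groups did not overlap, but Control-AI 4 lay close to the ART-Normal range.

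NDUFB7, also accessory to complex I, was at 40.7, 39.2, 53.2 and 48.5 CPM in ART-Normal liver and at 32.5 and 30.4 CPM in Control-AI liver (0.52 ± 0.17, SE; adjusted p = 0.513, edgeR). Here both controls were below all 4 ART-Normal livers and close to each other. NDUFA3, a membrane subunit of complex I, had the largest value toward ART-Normal in muscle (0.86 ± 0.40, SE; adjusted p = 0.563, edgeR), from 27.2, 36.5, 36.8 and 50.1 CPM against 8.94 and 32.2 CPM, and Control-AI 4 was inside the ART-Normal range. ATP5F1E and SDHC in liver, at 0.72 ± 0.43 and 0.43 ± 0.26 (SE), had the same form, with 48.5 and 66.1 CPM in Control-AI 2 while Control-AI 4 had 204 and 142 CPM.

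Toward Control-AI, SDHA in liver had 251 to 289 CPM in ART-Normal against 351 and 299 CPM in the controls (-0.29 ± 0.14, SE; adjusted p = 0.589, edgeR). NDUFS8, an iron-sulfur subunit of complex I, had 27.0 to 38.0 CPM against 38.9 and 42.8 CPM in liver (-0.35 ± 0.18, SE; adjusted p = 0.589, edgeR), and COX5A had 51.0 to 57.4 CPM against 62.9 and 64.5 CPM (-0.24 ± 0.12, SE; adjusted p = 0.590, edgeR). In each of these genes the groups did not overlap. In muscle the lowest p toward Control-AI belonged to ATP5S (-0.56 ± 0.26, SE; adjusted p = 0.567, edgeR), NDUFV3 (-0.17 ± 0.14) and ATP5MC3 (-0.16 ± 0.12).

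Groups that did not overlap took a smaller share of the members than of all genes in each tissue and direction. In muscle 3 of 81 members were higher in every ART-Normal fetus (NDUFA7, NDUFS4 and COX8A) against 8.11% of all genes, and 2 were lower (ATP5PO and ATP5S) against 7.95%. In liver 2 of 79 were higher (NDUFB7 and NDUFS1) against 9% of all genes, and 6 were lower (NDUFA6, NDUFS8, NDUFV3, SDHA, UQCRC1 and COX5A) against 9.54%. These genes are named after their values were seen.

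The change with conception was also compared between tissues in a fit with the fetus as a block. No member passed this test of the difference, 0 of 81 had an unadjusted p under 0.05 against 9.52% of all 12923 genes, and 0% of all genes were called. DESeq2 called 0 members there and 23 genes. SDHA (-0.25 ± 0.11, SE; adjusted p = 0.530, edgeR) and NDUFS8 (-0.47 ± 0.24, SE; adjusted p = 0.548, edgeR) had the lowest p, with the value in liver below the value in muscle.

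Although no member was called, the members leaned toward ART-Normal in value, and this rested on Control-AI 2. The median log2 fold change was 0.12 in muscle, with 58 of 81 members above 0, and 0.09 in liver, with 52 of 79 above 0. The medians of all genes were 0.000686 and 0.00751. With Control-AI 4 as the only control the members' medians were -0.01 in muscle, with 36 above 0, and -0.12 in liver, with 11 above 0. With Control-AI 2 as the only control they were 0.33 in muscle, with 63 above 0, and 0.39 in liver, with 62 above 0. A lone control is assumed in that fit to vary like the ART-Normal fetuses. Under library size alone the liver median was 0.26 for the members and 0.21 for all genes.

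**Figure D4:**
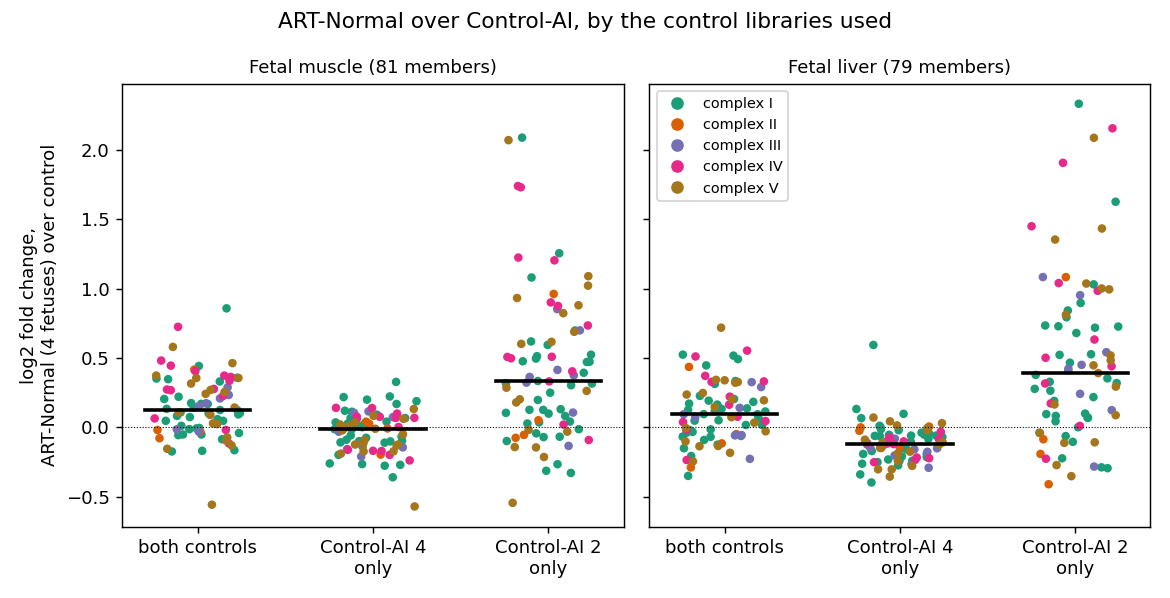
Log2 fold change of 4 ART-Normal fetuses over control for the 81 members tested in muscle (left) and the 79 in liver (right), with both controls, with Control-AI 4 only and with Control-AI 2 only. Each point is a gene coloured by complex and the bar is the median, which is 0.12, -0.01 and 0.33 in muscle and 0.09, -0.12 and 0.39 in liver.

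Control-AI 2 was therefore described on its own. Its members stood below the mean of the other 5 libraries by a median log2 ratio of -0.31 in muscle and -0.43 in liver, against -0.00326 and -0.04 for all genes tested. It was the lowest of the 6 libraries in 49 of 81 members in muscle and 53 of 79 in liver, where it was lowest in 25.9% and 27.8% of all genes. A total of 45 members were lowest there in both tissues and 24 in neither. Across the 79 members tested in both tissues, the log2 ratios in muscle and liver had a Pearson r of 0.93. These points share a fetus and 2 libraries and are not independent. Neither the counts over both tissues nor the r was computed for all genes, so they cannot be called particular to the members.

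The shortfall was deep in some subunits and missing from others of the same complex. NDUFA3 had log2 ratios of -1.97 in muscle and -2.33 in liver, ATP5F1E -2.05 and -2.09, COX7A2 -1.71 and -1.92, COX7B -1.21 and -2.19, COX7C -1.23 and -1.50, and NDUFA1 -1.21 and -1.59. COX7A2, for instance, was at 15.1 CPM against 39.1 to 59.3 CPM in muscle and at 20.7 CPM against 69.3 to 87.9 CPM in liver. Control-AI 2 lay far outside the range of the others for this gene in both tissues.

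Within ATP synthase, the alpha subunit gene ATP5F1A had -0.95 and -0.83, while the beta subunit gene ATP5F1B had 0.07 and 0.26. SDHA had 0.10 and 0.36 beside -0.93 and -1.09 in SDHC, and UQCRC1 had 0.17 and 0.23 beside -0.854 and -0.997 in UQCRC2. Partners in 1 enzyme thus had values on either side of 0. By complex the medians were -0.58 and -0.60 in complex IV and -0.00119 and 0.12 in complex II. All of these genes were named after their values were seen.

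The Control-AI 2 libraries stood apart in other features too. They belong to a single fetus, so whether any of these features goes with the shortfall cannot be told. Its hepatocyte and erythroid sums are given above, and its muscle library had the lowest total, 12433300 counts. Its liver TMM factor was 0.755 against 0.961 to 1.04 in the other livers, while its muscle factor of 1.07 lay among the 1.03 to 1.08 of the other muscles. ND6, which is encoded on the other strand of mitochondrial DNA from most genes, was at 671 CPM in its muscle against 23.2 to 54.6 CPM in the others, and at 583 CPM in its liver against 65.5 to 106 CPM. Members without a gene overlapping on the other strand had medians of -0.31 in muscle (n = 69) and -0.44 in liver (n = 68), beside -0.46 (n = 12) and -0.28 (n = 11) in members with such a gene. Among all genes tested, the 2339 in muscle and 2261 in liver with the shortest spans had medians of 0.08 and -0.02, but held more deep losses: 4.49% and 7.03% of them had log2 ratios below -1, beside 2.73% and 2.65% of all genes and 11.1% and 19% of the members. The part of RNA makeup, library preparation, counting by strand and gene span in the shortfall was not tested.

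**Figure D5:**
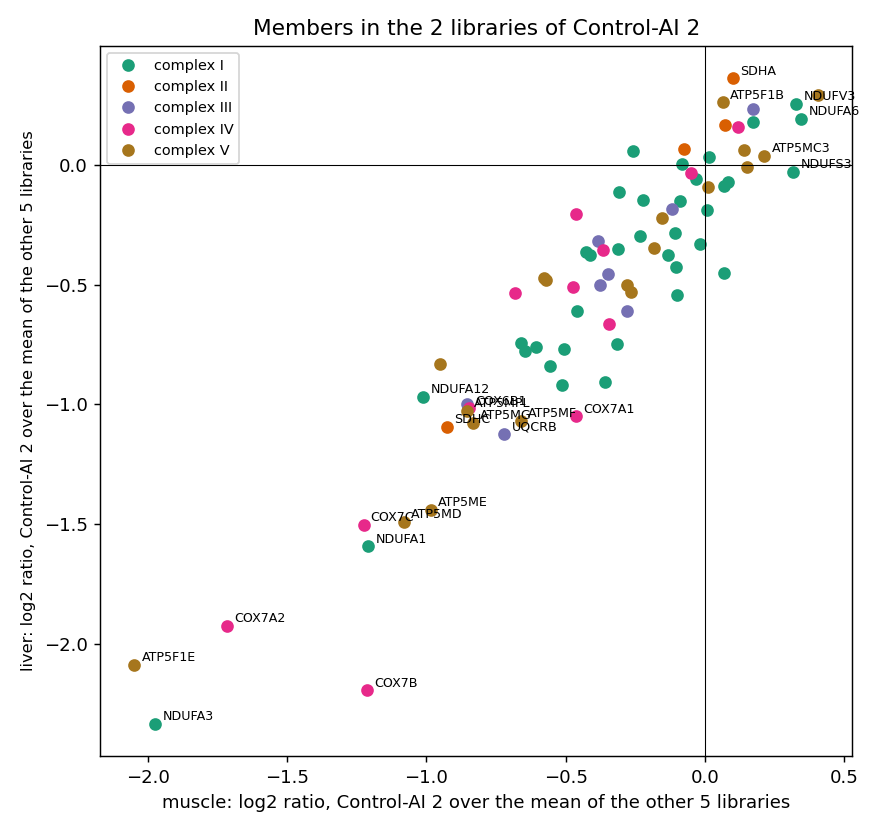
Log2 ratio of Control-AI 2 over the mean of the other 5 libraries in muscle (horizontal) and in liver (vertical) for the 79 members tested in both, coloured by complex. NDUFA3, ATP5F1E, COX7A2 and COX7B lie at the lower left, and SDHA, ATP5F1B and NDUFV3 lie above 0 in both tissues.

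ART-Normal fetuses also differed among themselves, and not in the same order in both tissues. ART-Normal 4 muscle was the highest of the 4 in 42 of 81 members, against 28.5% of all genes, and ART-Normal 3 muscle was the lowest in 40, against 23.8%. In liver, ART-Normal 3 was the highest in 33 of 79, against 20.7% of all genes, and the lowest in 2. The median coefficient of variation over the 4 fetuses was 11.1% in muscle and 10.2% in liver, beside 11.6% and 12.7% for all genes tested. The order was described after the values were seen.

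The most variable members in muscle were the muscle forms of complex IV. COX8B had a highest to lowest ratio of 3.33 and COX6A2 of 2.35 over the 4 ART-Normal fetuses, with ART-Normal 1 lowest and ART-Normal 4 highest in both. The skeletal muscle marker sum was also lowest in ART-Normal 1, at 17102 CPM against 25618 to 27791 CPM in the other ART-Normal muscles. The controls had another order. Control-AI 2 had a marker sum of 24100 CPM and Control-AI 4 of 22647 CPM, but COX6A2 and COX8B were lower in Control-AI 2. The part of the marker sum in these ratios was not tested. In liver NDUFB1, a small accessory subunit of complex I, had the highest ratio at 4.25, with 8.92 CPM in ART-Normal 4 and 31.4 to 37.9 CPM in the others.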

How the data were processed

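Poly(A) RNA was sequenced from both ends (150 bp) after a strand-specific preparation. For muscle and for liver the authors deposited unnormalized read counts of each gene, and the submitters' processing notes name FastQC 0.11.7, HISAT2 2.1.0, Cufflinks, SAMtools, featureCounts, edgeR 3.24.3 and ARS-UCD1.2. Each of the 21048 listed lengths equals the gene span, so introns lay inside the counted regions; the strand setting and the handling of multiply mapped reads are not given in the sources used here. Depth ranged from 12433300 to 43339598 counts per library. Of the count columns, 7 per tissue (14 in all) were not used. The authors' tables of their own comparisons hold fold changes and FDR values and were not used.

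From the counts, edgeR 4.0.16 in R 4.3.3 computed TMM factors, CPM, log2 fold changes and two-sided quasi-likelihood tests for every gene that reached 5 CPM throughout at least 1 group. P-values were adjusted by Benjamini-Hochberg and called at 0.05. The standard error is the size of the log2 fold change over the square root of F. Tissue and interaction fits had the fetus as a replicate block, since liver and muscle of a fetus share an animal; deviations from group means correlated between its tissues at r of 0.06 to 0.51. Isoform ratios used log2 of CPM plus 0.5 and an exact sign-flip permutation test over 6 fetuses. Plots used Python 3.11.15 and Matplotlib 3.10.9. The scripts were tested on simulated data.

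The members, gene lists and marker lists were chosen with earlier results of these data known. Named genes are the complex IV isoform genes, complex II, the 2 members of each other complex with the largest fold change toward each tissue, the catalytic members and ATP5IF1, and, by conception, the 3 with the lowest p in each direction per tissue and the 2 in the interaction. Other genes were named after their values were seen. Alternatives were RLE, upper quartile and library size scaling, DESeq2 1.42.0, the likelihood ratio test, no filter, a minimum of 10 counts per library, fits with or without the replicate block, ART-Normal fetuses alone, pseudocounts of 0.1 and 1 CPM, and leaving out each fetus in turn.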

Additional observations from a re-analysis of the deposited data

Results flagged for a closer look

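A fetus far from the other 3 ART-Normal fetuses was found by Dixon's criterion in 7 of 160 groups tested, fewer than the 5% of groups that chance gives. In muscle ART-Normal 4 was high for UQCRFS1, at 72.4 CPM against 66.0 to 66.7 CPM, and for ATP5MF, a membrane subunit of ATP synthase, at 73.8 CPM against 55.9 to 58.2 CPM.

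In liver ART-Normal 1 was high for the complex I genes NDUFB5, at 45.2 CPM against 33.1 to 35.0 CPM, and NDUFS1, at 166 CPM against 143 to 147 CPM, and for ATP5S, at 15.7 CPM against 8.68 to 9.77 CPM. It was low for NDUFB9, at 45.8 CPM against 51.2 to 51.6 CPM. ART-Normal 4 liver was low for NDUFA4, at 102 CPM against 119 to 121 CPM.

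Among the 6 fetuses, the difference between muscle and liver in the log2 ratio of COX8B to COX8A was lowest in ART-Normal 1, at 3.07 against 4.67 to 5.61.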

How the results depend on the processing

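With 2 Control-AI fetuses, the comparison by conception rested on single libraries. Without Control-AI 4, 1 control remained, and it was assumed to vary like the ART-Normal fetuses. That fit tested 81 members among 12215 genes in muscle and 79 among 11602 in liver. The members leaned to ART-Normal there, with median log2 fold changes of 0.33 in muscle and 0.39 in liver. The medians of all genes were -0.000234 and 0.00773. Leaving out each fetus in turn gave 0 to 20 members called in muscle and 0 to 18 in liver, with 0 to 1327 and 0 to 830 genes in all and 0 to 208 genes in the interaction; the highest values came without Control-AI 4. Control-AI and ART-Normal share replicate numbers but no animal, and samples of 1 number deviated with r of -0.03 and -0.20 in muscle and 0.03 and -0.14 in liver; a replicate block on those numbers called 3 members and 90 genes in muscle and 0 members and 6 genes in liver. All genes called were 106, 56 and 23 with DESeq2 and 120, 89 and 108 with the likelihood ratio test in muscle, liver and the interaction, and 6 in liver and 1 in the interaction under library size alone. Between tissues, 24 members were higher in liver under library size alone, and 37 without the replicate block. COX7A2L turned to 0.0341 under library size alone and UQCRB to -0.0407 in ART-Normal fetuses alone. For single genes, 598 values kept their direction and side of the threshold, 25 lost a call, 5 gained one and 2 reversed. The 5 isoform ratios computed kept their sign under each alternative run, those of COX6A2 and COX8B in a direction set by the filter. With 5 fetuses no test could pass. Depth leaves COX6A2 in liver known only as 1 count in 6 libraries.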
